A study of Homo sapiens with 6 samples.

Results

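Nucleoporins build the pores of the nuclear envelope, and karyopherins (importins, transportins and exportins) carry cargo through them. The genes described here are the rows of a human gene count table whose official symbols name a nucleoporin, a karyopherin, RAN, RANBP1 or RANBP2. They number 55 of the 19240 genes in the table, all of them protein-coding. The cells were A549, a long-used epithelial line from a human lung carcinoma, kept for 48 h either without glucose or with 25 mM of it, with 3 libraries per group. Transcripts were counted from their 3' ends. Both groups were the same line in culture, carried no stated genetic change and differed in the labels by glucose alone. Whether replicate libraries stem from separate cultures is not stated, so the p-values rest on a spread that may be technical only. The title of the series names PCK2, a mitochondrial enzyme that makes phosphoenolpyruvate, and growth that does not depend on glucose.

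The pore is a ring of repeated subcomplexes. The Y complex and the inner ring form its scaffold, nucleoporins rich in phenylalanine-glycine (FG) repeats fill its channel, and filaments and a basket extend from its cytoplasmic and nuclear faces. Importins bind cargo in the cytoplasm and release it in the nucleus when they meet the GTPase Ran loaded with GTP, while exportins need the same RanGTP to hold their cargo. In dividing animal cells the pores come apart at mitosis and are built anew, and Ran and some importins also serve in spindle assembly.

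Libraries held 11086416 to 14060313 gene counts without glucose and 6701004 to 14259943 with glucose. The first principal component, with 57.4% of the variance, separated the groups, and the second, with 17.6%, put the glucose replicate 1 (score -38.6) far from the other two of its group (23.9 and 19.9). That library was also the shallowest. Levels are in CPM, counts scaled by the TMM-adjusted library size. The epithelial keratin genes KRT8 and KRT18 averaged 921 ± 148 and 736 ± 16.4 CPM without glucose, against 2091 ± 234 and 1369.5 ± 149.6 CPM with glucose (SD, n = 3 each). EPCAM and CDH1 were low, at means of 3.09 and 7.88 CPM without glucose and 4.10 and 5.93 CPM with glucose. The alveolar markers SFTPC and SFTPA1 were at 0 counts in all 6 libraries, SFTPB reached at most 0.915 CPM and NKX2-1 at most 0.141 CPM. The leukocyte list summed to 0 to 0.147 CPM without glucose and 1.06 to 1.70 CPM with glucose, and CD3E had no count; 1 of its 4 genes, CD14, was tested, and it fell. The fibroblast and endothelial list summed to 4.52 to 5.67 CPM without glucose and 11.6 to 14.9 CPM with glucose, with COL1A2 and VWF at 0; 1 of its 6 genes, COL1A1, was tested, and it fell. The part of such transcripts in the results was not tested.

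Without glucose, 6 of 12 scaffold nucleoporins among the 55 genes fell. The exportin XPO1, the importin alpha KPNA2 and the Ran partner RANBP1 also fell, while the basket genes and most karyopherins did not pass the test. Of the 55 genes, 53 had enough counts to be tested. With p-values from edgeR's quasi-likelihood test, Benjamini-Hochberg adjusted over all 11886 tested genes, 14 fell, 1 rose and 38 did not pass at an adjusted p under 0.05. Of all tested genes, 10.7% fell and 11.6% rose. The log2 fold change (no glucose over glucose) was negative for 43 of the 53, against 48.5% of all tested genes, and its median was -0.28, against 0.02 over all tested genes. In 22 of the 53 all 3 libraries without glucose lay below all 3 with glucose, and in 2 all lay above; over all tested genes the shares were 19.4% and 21%. Among the members tested, the nucleoporins fell in 10 of 28 cases and the importins, transportins and exportins in 3 of 23. The number that fell was 8 when the no-glucose replicate 2 was left out and 9 when the glucose replicate 2 was. It was 12 without the glucose replicate 1, the library that stands apart. Of the scaffold genes, 1 of the Y complex and 2 of the inner ring fell without the no-glucose replicate 2. With all libraries, and without the glucose replicate 1, these counts were 2 and 4. SEC13 and AHCTF1, nucleoporins outside the naming rule, had log2 fold changes of 0.05 and -0.06 and did not pass.

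**Figure D1:**
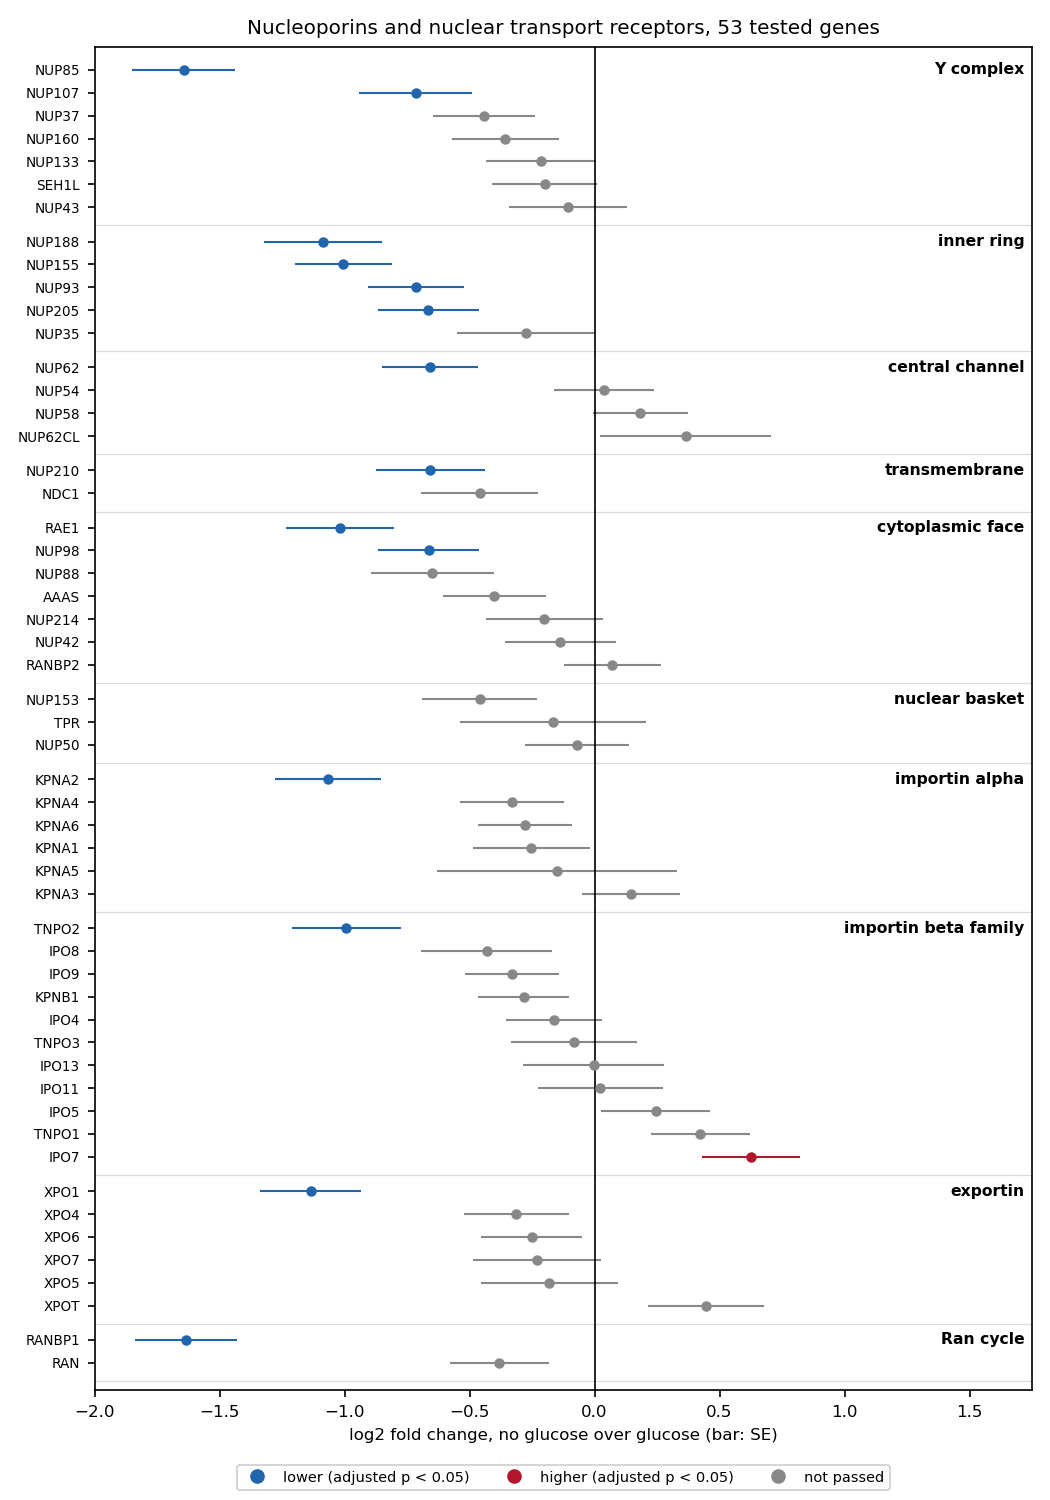
Log2 fold change of each of the 53 tested genes (x axis, no glucose over glucose, with SE as a bar), ordered within its class. Blue points fell, the red point (IPO7) rose and grey points did not pass at an adjusted p under 0.05; NUP85 (-1.64) and RANBP1 (-1.63) lie farthest to the left.

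Sequence before the start site was searched because several of these genes fell together. RefSeq (GRCh38.p14) promoters matched 48 of the 55 genes, and the 250 bases before the first listed start were searched on both strands for TTTGAA (a form of the cell cycle element CHR), for CCAAT (the core of NF-Y sites), for the E2F forms TTTCCCGC, TTTCGCGC, TTTGCCGC and TTTGGCGC, and for the ATF4 form TGATGNAAT. Matches of TTTGAA and CCAAT can share at most 1 base. CCAAT stood in 7 of the 13 matched promoters of genes that fell, in 13 of 33 of those that did not pass and in 33% of all 27305 promoters of this length (35.1% of the promoters of tested genes). TTTGAA stood in 3 of 13, 5 of 33 and 13.6% (8.02% of the promoters of tested genes). IPO7, the gene that rose, also holds TTTGAA, 182 bases before its first listed start. The E2F forms stood in 0 of 13, 1 of 33 and 2.79% (4.57% for tested genes), and the ATF4 form in 0 of 13, 0 of 33 and 0.916% (0.418% for tested genes). A TTTGAA match followed within 30 bases by CCAAT, a pattern chosen after the matches were seen, stood in 5 of the 48 promoters (KPNA2, NUP205, NUP98, NUP37 and NUP35) and in 0.905% of all promoters, or 0.52% of those of tested genes. These matches describe letters only. The windows of the members of these 5 that fell are given below for that pairing, 5′ to 3′ on the gene's strand, with both motifs in capitals; TTCAAA is TTTGAA on the other strand. They lie at chr17:68035485-68035734 on the plus strand for KPNA2, chr7:135557667-135557916 on the plus strand for NUP205 and chr11:3797547-3797796 on the minus strand for NUP98.
KPNA2: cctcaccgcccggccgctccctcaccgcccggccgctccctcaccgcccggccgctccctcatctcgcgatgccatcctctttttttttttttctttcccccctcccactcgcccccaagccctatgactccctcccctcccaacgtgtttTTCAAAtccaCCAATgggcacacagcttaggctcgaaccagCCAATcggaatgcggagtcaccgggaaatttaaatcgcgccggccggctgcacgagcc
NUP205: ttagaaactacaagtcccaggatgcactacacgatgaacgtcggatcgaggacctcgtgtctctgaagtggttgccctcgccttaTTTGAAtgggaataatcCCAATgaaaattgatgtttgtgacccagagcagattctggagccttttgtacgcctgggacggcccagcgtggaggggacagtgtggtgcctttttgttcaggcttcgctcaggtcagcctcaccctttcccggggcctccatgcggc
NUP98: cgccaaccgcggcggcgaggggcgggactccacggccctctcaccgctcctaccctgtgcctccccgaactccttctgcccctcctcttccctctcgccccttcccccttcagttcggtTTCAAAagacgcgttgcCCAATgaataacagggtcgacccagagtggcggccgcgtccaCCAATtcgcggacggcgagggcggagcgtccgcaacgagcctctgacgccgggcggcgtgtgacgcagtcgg
The TTTGAA match begins 99 bases before the start in KPNA2, 165 in NUP205 and 131 in NUP98, and the next CCAAT begins 89, 148 and 114 bases before it. KPNA2 and NUP98 hold another CCAAT at 58 and 72 bases. XPO1 has a pair of CCAAT at 75 and 32 bases before its first listed start and no TTTGAA. At least 2 CCAAT stood in 3 of the 13 promoters of genes that fell and in 4 of the 33 that did not pass. The share was 10% of all promoters and 12.9% of those of tested genes.

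In the Y complex, the outer scaffold of the pore, all 7 members had negative log2 fold changes, and 2 fell (median -0.36). NUP85 (Entrez 79902), a core scaffold subunit, had 80.7, 87.3 and 63.1 CPM without glucose, against 258, 225 and 239 CPM with glucose, for replicates 1, 2 and 3. The groups lie far apart, and the libraries within each are close together. NUP85 fell 3.12-fold, with a log2 fold change of -1.64 ± 0.21 (SE) and an adjusted p of 0.000253 by edgeR. NUP107, another core subunit, had 41.3, 33.1 and 29.5 CPM without glucose, against 45.5, 71.4 and 53.4 CPM with glucose. Its groups do not overlap but come close, at replicate 1 of both. NUP107 fell with a log2 fold change of -0.72 ± 0.23 (adjusted p = 0.0401 by edgeR). The call was lost without replicate 2 or 3 of either group (adjusted p 0.0775 to 0.165), and then 1 member of the complex fell. NUP37, a peripheral subunit, averaged 30.5 ± 5.88 CPM without glucose and 41.6 ± 2.19 CPM with glucose (SD, n = 3 each) and did not pass, although its groups do not overlap (log2 fold change -0.44). NUP160, NUP133 and NUP43, and SEH1L, which is shared with the GATOR2 complex of nutrient signalling, had overlapping groups and log2 fold changes of -0.36, -0.21, -0.11 and -0.20. Summed over the 7 members, levels were 249, 262 and 224 CPM without glucose, against 480, 451 and 443 CPM with glucose. NUP85 was the largest part of this sum, at means of 77.1 CPM without glucose and 241 CPM with glucose. SEC13, which is not in the sum, averaged 236 ± 28.1 CPM without glucose and 228 ± 36.9 CPM with glucose (SD, n = 3 each).

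In the inner ring, which sits against the pore membrane, 4 of 5 members fell, with a median log2 fold change of -0.71. NUP155, a scaffold near the membrane, had 33.0, 31.5 and 26.8 CPM without glucose, against 59.4, 67.1 and 56.7 CPM with glucose. No library of one group comes near the other. Its log2 fold change was -1.01 ± 0.19, with an adjusted p of 0.00351 by edgeR. NUP188, one of the large ring scaffolds, had 12.6, 9.34 and 10.5 CPM without glucose, against 28.5, 20.8 and 19.6 CPM with glucose. The highest of these was replicate 1 with glucose. NUP188 fell by 1.09 ± 0.24 on the log2 scale (adjusted p = 0.00637). Its relative NUP205 had 26.1, 21.3 and 31.0 CPM without glucose, against 40.7, 40.8 and 42.8 CPM with glucose. The libraries with glucose are nearly equal, and the others spread below them. NUP205 fell by 0.67 ± 0.20 on the log2 scale (adjusted p = 0.0335). NUP93, which organises the ring, had 50.7, 49.98 and 58.3 CPM without glucose, against 94.4, 82.7 and 83.9 CPM with glucose. The groups stand clear of each other. NUP93 fell by 0.71 ± 0.19 on the log2 scale (adjusted p = 0.0190). NUP35, the membrane-binding subunit, had 6.66 to 9.01 CPM without glucose and 7.67 to 12.4 CPM with glucose and did not pass (log2 fold change -0.27). When the no-glucose replicate 1 or 2 was left out, 2 members of the ring fell, since NUP93 (0.0547 and 0.0518) and NUP205 (0.0747 and 0.102) did not pass; NUP205 also did not pass without replicate 2 or 3 with glucose (0.0798 and 0.0943).

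Among the channel nucleoporins, which carry FG repeats, NUP62 fell and its partners did not pass. NUP62 had 108, 106 and 116 CPM without glucose, against 195, 171 and 155 CPM with glucose. The groups do not overlap. NUP62 fell by 0.66 ± 0.19 on the log2 scale (adjusted p = 0.0279 by edgeR), a call lost in each of the 5 fits that left out a library other than the glucose replicate 3 (0.0572 to 0.0756). NUP54 and NUP58, which form the channel with NUP62, had log2 fold changes of 0.04 ± 0.20 and 0.18 ± 0.19, with overlapping groups. NUP62CL, a NUP62-like gene, was low, at 3.46 to 6.35 CPM without glucose and 3.39 to 4.995 CPM with glucose. The span of NUP62 overlaps that of ATF5, a stress transcription factor gene, in the RefSeq table. ATF5 had a log2 fold change of -0.91, in the same direction as NUP62. Without glucose ATF5 had 1170, 1459 and 1320 counts, beside the 1139, 1388 and 1581 of NUP62. With glucose ATF5 had 1844, 1891 and 2247 counts, beside the 1381, 1784 and 2207 of NUP62. The part of ATF5 reads in the value of NUP62 was not tested. RANBP1 overlaps TRMT2A, which had 50 to 98 counts in a library and a log2 fold change of -0.73. RAE1 overlaps MTRNR2L3, which had a log2 fold change of 0.22. Without glucose MTRNR2L3 had 662, 603 and 458 counts, more than the 288, 432 and 408 of RAE1. With glucose MTRNR2L3 had 360, 370 and 514 counts, fewer than the 521, 651 and 673 of RAE1. NUP188 overlaps SH3GLB2, which had 203 to 351 counts, more than the 122 to 279 counts of NUP188, and a log2 fold change of -0.04. The strand setting of the counting is not given in the sources used here, so reads of overlapping genes on opposite strands may not be told apart. Reads that the counting set aside as ambiguous made up 0.37% to 0.42% of a library.

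Of the membrane proteins of the pore among the 55 genes, NUP210 fell and NDC1 did not pass. POM121 and POM121C, also membrane proteins of the pore, lie outside the 55 genes. They did not pass and had log2 fold changes of 0.01 and -0.25. NUP210 had 36.7, 41.9 and 39.1 CPM without glucose, against 79.8, 54.6 and 51.7 CPM with glucose. Replicate 1 with glucose stands above the other two of its group. NUP210 fell by 0.66 ± 0.22 on the log2 scale (adjusted p = 0.0472 by edgeR). The call was lost on leaving out any 1 library (0.0539 to 0.127). NDC1, the membrane anchor, averaged 24.3 ± 6.12 CPM without glucose and 33.6 ± 6.48 CPM with glucose (SD, n = 3 each), with a log2 fold change of -0.46. NUP210L, a relative of NUP210, had 0, 0 and 3 counts without glucose and none with glucose.

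Of the 7 members classed here with the cytoplasmic face, where exported mRNA is released, 2 fell (median log2 fold change -0.40). These were RAE1 and NUP98, and the other 5 did not pass. The class is a list, and its members need not sit at that face alone. RAE1, an mRNA export factor that binds NUP98, had 27.3, 33.1 and 30.1 CPM without glucose, against 73.6, 62.5 and 47.4 CPM with glucose. The libraries with glucose spread widely but all lie above the others. RAE1 fell 2.02-fold, with a log2 fold change of -1.02 ± 0.22 (adjusted p = 0.00575 by edgeR). NUP98, whose gene also encodes the Y complex scaffold NUP96, had 27.2, 25.6 and 20.8 CPM without glucose, against 39.0, 43.7 and 34.1 CPM with glucose. The groups do not overlap. NUP98 fell by 0.66 ± 0.20 on the log2 scale (adjusted p = 0.0341), a call lost on leaving out the no-glucose replicate 2 or 3 or the glucose replicate 2 (0.0570 to 0.130); without either replicate 2, 1 member of the face fell. NUP88, the partner of NUP214, had 69.6, 66.1 and 122 CPM without glucose, against 126, 141 and 136 CPM with glucose. Replicate 3 without glucose lies close to the libraries with glucose, and without it NUP88 passed (log2 fold change -0.99, adjusted p = 0.0170); with all libraries it did not (0.0773 by edgeR, 0.0423 by DESeq2). AAAS (aladin, an NDC1 partner), NUP214, NUP42 (a cofactor of mRNA release) and RANBP2 had log2 fold changes of -0.40, -0.20, -0.14 and 0.07, with overlapping groups. RANBP2, the large filament nucleoporin and SUMO ligase, has near-identical RGPD copies. Of the 7 RGPD genes listed, 5 had no count and none had more than 2 counts in a library, and reads that fit several places equally well were left out of the gene counts, so the value of RANBP2 is uncertain.

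No gene of the nuclear basket passed. By edgeR 0 of 3 fell or rose, also at an unadjusted p under 0.05, and by DESeq2 0 of 3 passed. NUP153, an FG nucleoporin of the basket, had 30.9, 33.5 and 22.4 CPM without glucose, against 42.0, 47.0 and 30.6 CPM with glucose. The groups overlap, because replicate 3 with glucose lies just below replicate 1 without glucose. Its log2 fold change was -0.46 ± 0.23 (adjusted p = 0.171 by edgeR). TPR, the filament scaffold of the basket, ranged from 192 to 366 CPM without glucose and from 134 to 441 CPM with glucose, where the lowest value was that of replicate 1. NUP50, which helps to free importin alpha from cargo, had a log2 fold change of -0.07 ± 0.21. The median of the 3 was -0.17 with all libraries. When 1 library was left out, it ran from -0.42 (the glucose replicate 1) to -0.01 (the no-glucose replicate 2).

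**Figure D2:**
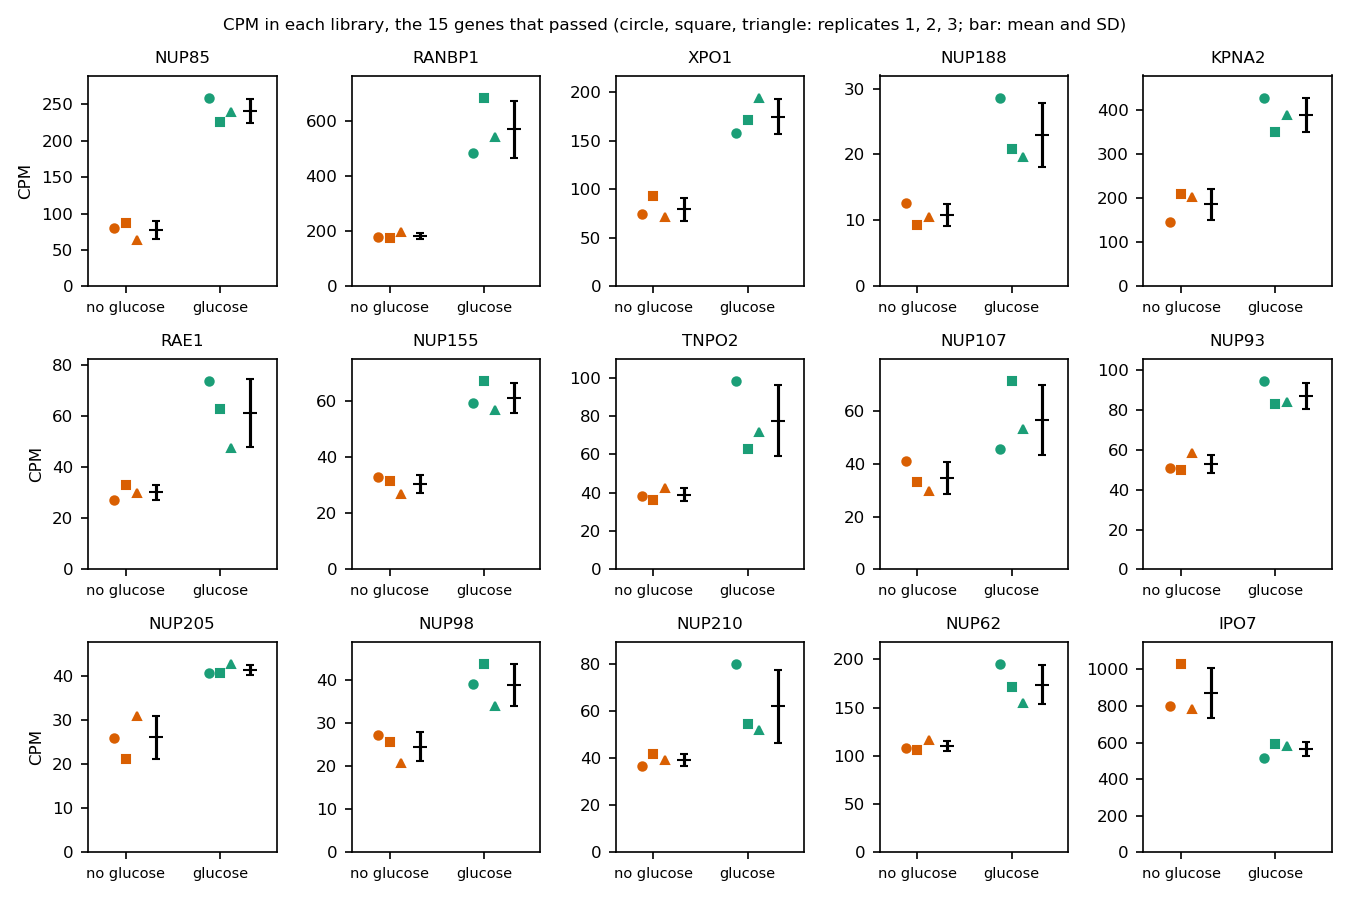
CPM of the 15 genes that passed, in each library without glucose (orange, left) and with glucose (green, right), with the mean and SD of each group as a black bar. The 14 genes that fell have all libraries without glucose below those with glucose, and IPO7 has them above.

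Of the importin alpha genes, which encode adaptors between cargo and importin beta, KPNA2 fell and the others tested did not pass. The share that fell was 16.7% of the 6 tested, against 10.7% of all tested genes. KPNA2, the form most linked to dividing cells, had 145, 210 and 202 CPM without glucose, against 426, 351 and 388 CPM with glucose. The highest library without glucose lies well below the lowest with glucose. KPNA2 fell 2.09-fold, with a log2 fold change of -1.07 ± 0.21 (adjusted p = 0.00401 by edgeR). KPNA4 and KPNA6 had groups that do not overlap, with log2 fold changes of -0.33 and -0.28, but did not pass (adjusted p = 0.276 and 0.311 by edgeR). KPNA1 and KPNA5 had log2 fold changes of -0.25 and -0.15, and KPNA3 had 0.15; their groups overlap. KPNA7, known from oocytes and early embryos, had 5, 5 and 7 counts without glucose and 4, 0 and 5 counts with glucose and was not tested.

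The makeup of the importin alpha counts also differed. KPNA2 made up 33.1%, 39.3% and 38.1% of them without glucose, against 55.5%, 48.6% and 54.1% with glucose. Exact binomial 95% intervals, which cover counting error only, ran from 31.8% to 34.5% in the lowest library and from 54.2% to 56.8% in the highest. KPNA3 made up 23.3%, 22.03% and 24.2% without glucose, against 15.2%, 13.75% and 13.7% with glucose, though its level did not pass the test. The shares use the same counts as the levels and are not a separate result. They count transcript ends, and priming may differ between genes. The sum of the family was 437, 534 and 530.5 CPM without glucose, against 769, 722 and 716 CPM with glucose.

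**Figure D3:**
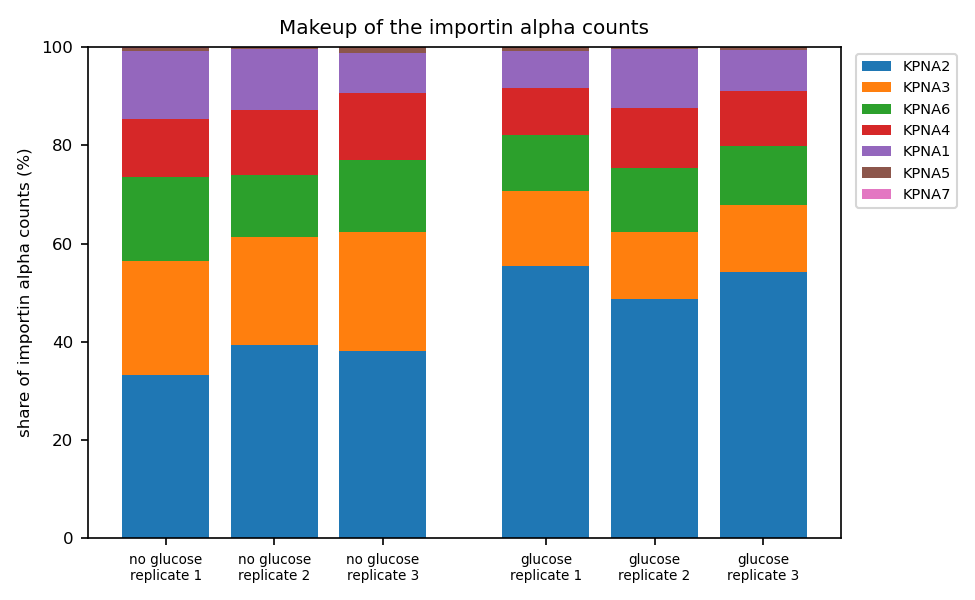
Share of each importin alpha gene in the summed importin alpha counts (y axis, %) of each library, without glucose on the left and with glucose on the right. The KPNA2 segment (blue, at the base) spans 33.1% to 39.3% without glucose and 48.6% to 55.5% with glucose.

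In the importin beta family, of 11 members, TNPO2 fell, IPO7 rose and 9 did not pass, so the share that fell was near that of all tested genes (10.7%), as was the share that rose (11.6%). TNPO2, a transportin for hnRNP proteins and other cargo, had 38.5, 36.0 and 42.4 CPM without glucose, against 98.2, 63.0 and 71.7 CPM with glucose. Replicate 1 with glucose is the highest, and the groups stand apart. TNPO2 fell by 0.99 ± 0.22 on the log2 scale (adjusted p = 0.00696 by edgeR). Its close relative TNPO1 had 298, 255 and 317 CPM without glucose, against 246, 210 and 194 CPM with glucose. All libraries without glucose lie above those with glucose, but TNPO1 did not pass (log2 fold change 0.42 ± 0.20, adjusted p = 0.142). The ratio of TNPO2 to TNPO1 counts, a pair chosen after the values were seen, was 0.129, 0.141 and 0.134 without glucose, against 0.400, 0.300 and 0.370 with glucose.

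IPO7, a carrier of ribosomal proteins, had 798, 1028 and 783 CPM without glucose, against 518, 592 and 580 CPM with glucose. The groups do not overlap. IPO7 rose by 0.63 ± 0.19 on the log2 scale (adjusted p = 0.0371 by edgeR), a call that was lost on leaving out any 1 library (0.0525 to 0.135) and with library totals as scaling (0.0617). KPNB1, importin beta itself, had 954, 830 and 847 CPM without glucose, against 1050, 1170 and 984 CPM with glucose. The groups do not overlap but the difference is small, and KPNB1 did not pass (log2 fold change -0.28 ± 0.18, adjusted p = 0.288). IPO9, a histone carrier, likewise had groups that do not overlap and did not pass (log2 fold change -0.33). IPO8 (SMAD and Argonaute proteins), IPO4 (histones), TNPO3 (SR splicing proteins), IPO13 (cargo in both directions), IPO11 (ubiquitin-conjugating enzymes) and IPO5 (ribosomal proteins and histones) had overlapping groups, with log2 fold changes between -0.43 and 0.25. Summed over the family, dominated by KPNB1 and IPO7, levels were 2780, 2892 and 2594 CPM without glucose, against 2628, 2789 and 2542 CPM with glucose. The sums of the groups overlap.

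Of the 6 exportins, XPO1 fell and the others did not pass. The share that fell was 16.7%, against 10.7% of all tested genes. XPO1, which exports proteins with leucine-rich signals, had 74.4, 92.8 and 71.4 CPM without glucose, against 159, 171 and 194 CPM with glucose. The groups are widely separated. XPO1 fell 2.20-fold, with a log2 fold change of -1.14 ± 0.20 (adjusted p = 0.00212 by edgeR). XPOT, the tRNA exporter, was the member with a positive log2 fold change, 0.45 ± 0.23, and did not pass (adjusted p = 0.186). It had 50.6, 51.0 and 41.4 CPM without glucose, against 24.7, 43.7 and 36.3 CPM with glucose, where replicate 1 is low and replicate 2 lies among the libraries without glucose. XPO4, the exporter of the translation factor eIF5A, had groups that do not overlap (log2 fold change -0.31, adjusted p = 0.308 by edgeR). XPO5 (precursor microRNAs), XPO6 (actin) and XPO7 (a broad carrier) had log2 fold changes of -0.18, -0.25 and -0.23, with overlapping groups.

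In the Ran cycle, RANBP1 fell and RAN did not pass. RANBP1, which helps to trigger GTP hydrolysis by Ran in the cytoplasm, had 177, 176 and 196 CPM without glucose, against 483, 682 and 540 CPM with glucose. The libraries without glucose are close to each other, and the lowest with glucose lies far above them. RANBP1 fell 3.10-fold, with a log2 fold change of -1.63 ± 0.21 (adjusted p = 0.000265 by edgeR). RAN, the GTPase, had 470, 609 and 624 CPM without glucose, against 831, 687 and 700 CPM with glucose. The groups do not overlap, but RAN did not pass (log2 fold change -0.38 ± 0.20, adjusted p = 0.187). The other regulators of Ran stand in a list of 15 transport factors outside the naming rule, of which 14 were tested. Of these 14, 2 fell, 1 rose and 11 did not pass (median -0.30). The share that fell was 14.3%, near the 10.7% of all tested genes, of which 11.6% rose. RCC1, the nucleotide exchange factor that loads Ran with GTP, fell by 0.80 ± 0.19 on the log2 scale (adjusted p = 0.00998 by edgeR). RANGAP1, the activator of GTP hydrolysis, fell by 0.74 ± 0.21 (adjusted p = 0.0242). RANBP6, an importin-like gene, rose by 0.80 ± 0.25 (adjusted p = 0.0371). CSE1L, which returns importin alpha to the cytoplasm, had groups that do not overlap but did not pass (-0.36).

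Neighbouring machinery was described by the same fit. Of 5 further nucleoporins, SEC13, AHCTF1, POM121, POM121C and GLE1, 0 passed by edgeR, also at an unadjusted p under 0.05, and 0 by DESeq2; their log2 fold changes lay between -0.25 and 0.09. Of 23 mRNA export genes, 4 fell and 19 did not pass (median -0.27). The share that fell was 17.4%, against 10.7% of all tested genes. THOC3, DDX39A and ALYREF fell; their log2 fold changes were -1.41 ± 0.20, -1.36 ± 0.20 and -1.42 ± 0.27. THOC3 is a subunit of the THO core of the TREX export complex, and the other THO genes listed did not pass, with log2 fold changes of -0.64 (THOC7), -0.42 (THOC5), -0.38 (THOC1), 0.33 (THOC6) and 0.67 (THOC2). Of 16 tested genes of the nuclear envelope and lamina, 6 fell, 1 rose and 9 did not pass (median -0.32). The B-type lamin genes LMNB1 and LMNB2 fell (log2 fold changes -2.22 ± 0.29 and -1.48 ± 0.23), and so did TMPO, which encodes lamina-associated polypeptides (-1.34 ± 0.26).

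Genes of DNA replication and mitosis moved in the same libraries. All 16 replication genes listed fell (median -1.75), and their summed level was 786 to 910 CPM without glucose and 2631 to 2759 CPM with glucose. Of 14 mitosis genes, 13 fell and 1 did not pass (median -1.73), and their sum was 1229 to 1928 CPM without glucose and 2482 to 4258 CPM with glucose. The part of the lower level of dividing-cell genes in the values of the nucleoporins and transport receptors was not tested. In bulk samples, fewer cells with a transcript and less of it per cell cannot be told apart.

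**Figure D4:**
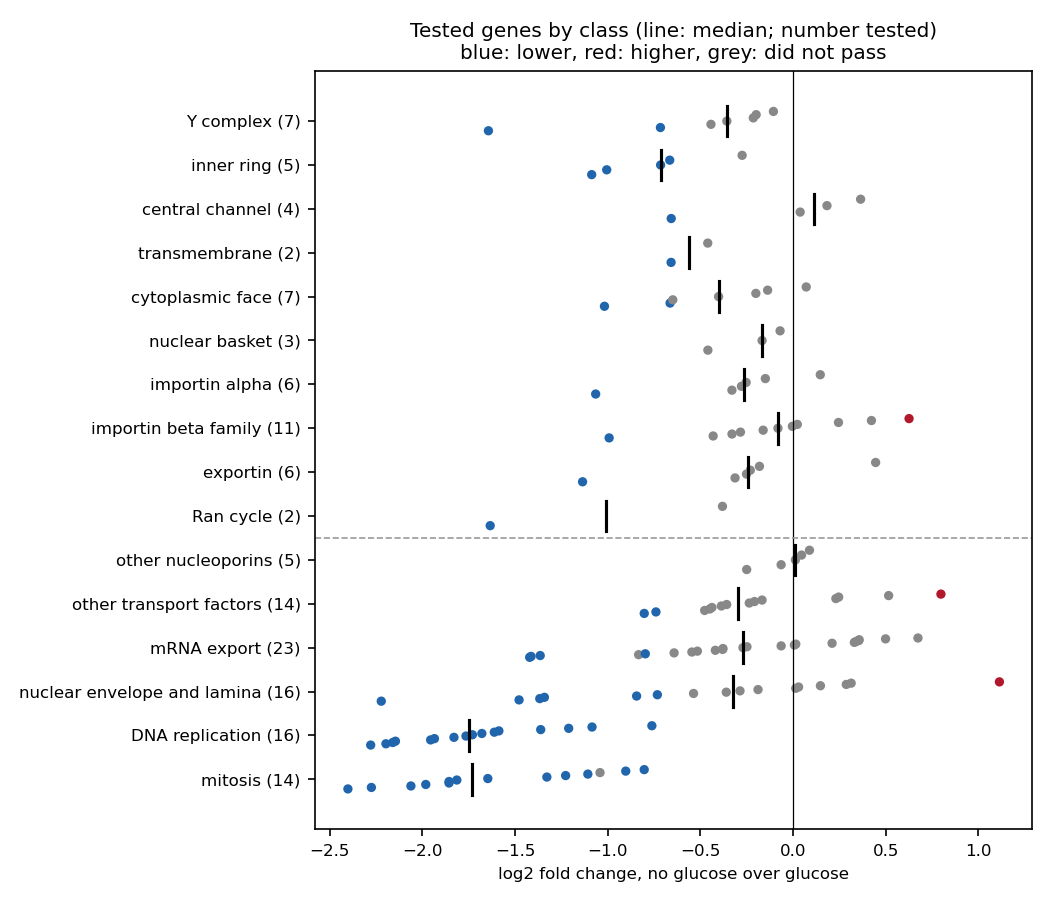
Log2 fold change (x axis, no glucose over glucose) of the tested genes of each class and, below the dashed line, of other lists, with the median as a black line. Medians run from -1.01 (the pair of Ran cycle genes) to 0.11 (central channel), and the replication and mitosis lists lie at -1.75 and -1.73.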

How the data were processed

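Per the submitters' processing notes, the authors aligned reads with STAR and counted them with HTSeq on build hg19; versions, annotation and strand setting were not stated. The deposited values are raw counts of reads per gene. Per the labels' protocols, first strands were made from barcoded oligo-dT primers and pooled, and the strand-specific libraries were enriched by PCR. No molecular identifiers are mentioned, so PCR copies count as separate reads. The 5 HTSeq summary lines were dropped before scaling and testing; reads outside genes made up 32.8% to 36.5% of a library and reads with several alignments 18.4% to 22.2%.

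Entrez numbers were matched to RefSeq symbols for 19178 of 19240 genes; coordinates printed are those of the RefSeq promoter table on GRCh38.p14, not of the counts. Another 35 RefSeq symbols that fit the naming rule (27 pseudogenes and 8 long non-coding RNAs) had no row in the count table. Reads shared with such pseudogenes, among them those of KPNA2, KPNA4, KPNB1, IPO7, TNPO1, XPOT, NUP50 and NUP35, may be lost from the counts, so values of those genes are less certain. Members and lists were chosen with earlier results of these data known.

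Groups were compared with the two-sided quasi-likelihood F test of edgeR 4.0.16 (R 4.3.3) after TMM scaling and filterByExpr (minimum count 10), with no covariate, adjusted by Benjamini-Hochberg over all genes kept; the code was tested on simulated data. The SE of a log2 fold change is its size divided by the square root of F and is approximate. Libraries of a group differed by more than sampling noise (chi-square per degree of freedom 22.1 to 57.3), so none were merged. Values in every library are given for each member that passed and, in a class with none, for the member with the smallest p; for other members shown in this way, and for the ratio of TNPO2 to TNPO1, the choice was made after the values were seen. From other lists, up to 3 genes that passed with the smallest p are named. Alternatives were both other scalings, 2 other filters, DESeq2 1.42.0, a replicate block and leaving out each library. Protein sequences were not used here.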

Additional observations from a re-analysis of the deposited data

How the results depend on the processing

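All 15 members that passed kept their direction in all 12 alternatives, and 8 of them (NUP85, RANBP1, XPO1, NUP155, KPNA2, RAE1, NUP188 and TNPO2) passed in each. The number of members that fell was 14 to 15 with the other scalings, the other filters and DESeq2, 8 with a replicate block and 8 to 12 when 1 library was left out. The number that rose was 1 with size factors of DESeq2, either filter and the DESeq2 test. It was 0 by edgeR with library totals as scaling and with a replicate block (1 each at an unadjusted p under 0.05) and 0 to 0 when 1 library was left out (1 to 2 unadjusted). The median log2 fold change of the members was -0.34 with library totals as scaling and -0.35 to -0.28 when 1 library was left out. Over all genes, leaving out 1 library gave 860 to 1292 that rose and 781 to 1232 that fell. Same-numbered libraries did not deviate together (correlations -0.265, -0.121 and 0.0361), so the numbers were not taken as pairs. With the block the calls of IPO7, NUP107, NUP62, NUP98, NUP93, NUP205 and NUP210 were lost (adjusted p 0.0627 to 0.107). The SE of the log2 fold change was largest among the members for KPNA5 (0.48) and NUP62CL (0.34), both with few counts, and TPR (0.37), which was well covered but spread widely between libraries.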
